A study of Mus musculus with 4 samples.

Results

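Among the cells of the E5.5 mouse embryo library, 1261 of 9560 (13.2%) were Hand1 positive trophoblast cells without placental lactogen, and they are described here. They were selected on their measured counts. Each held at least 1000 molecule counts (UMIs), at least 10 UMIs of Hand1 and under 3 UMIs of the placental lactogen genes Prl3d1, Prl3d2 and Prl3d3 together. In each, the sum of Gata2, Gata3, Rhox6, Rhox9, Ascl2 and Hand1 was above the sum of the endoderm genes Sparc, Col4a1, Lamb1, Cubn and Amn and above the sum of the epiblast genes Tdgf1, Sox2, Utf1 and Pou3f1. They made up 56.2% of the 2242 E5.5 cells that met this trophoblast condition, and were set against the 122 of these cells with at most 2 UMIs of Hand1 and under 3 of lactogen. The library came from 50 whole wild-type B6C3F1/J embryos, dissected out of their implantation sites with forceps, pooled and taken apart with the enzyme TrypLE, and cells were captured in the microwells of a BD Rhapsody cartridge. Of the other 3 libraries of the study, EDG7.5 and EDG9.5 came from flushed blastocysts, and so did Reactivated, labelled as EDG9.5 followed by 30 h of E2. All were whole wild-type B6C3F1/J embryos, between 200 and 250 pooled for each of these 3. There was 1 library per stage and the labels tie no cell to an embryo, so no value below has a replicate check and no test was made.

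Trophoblast is the outer lineage of the blastocyst and forms the embryonic side of the placenta. At implantation its polar part grows into the extraembryonic ectoderm, which keeps dividing next to the epiblast, and into the ectoplacental cone, which faces the maternal tissue and feeds the spongiotrophoblast and giant cells. Hand1 is a basic helix-loop-helix (bHLH) factor known for its need in giant cell formation. Ascl2, another bHLH factor and an imprinted gene, is known for holding ectoplacental precursors. Gata2 and Gata3 are trophoblast zinc finger factors, and Cdh5 is a junctional cadherin best known from endothelium.

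The 4 libraries held 9270833 to 87507141 UMIs over 677 to 9560 barcodes, with a median of 3724.5 to 13154 UMIs per barcode, and 14482 barcodes had at least 1000 UMIs. The E5.5 library shared 23 barcodes with EDG7.5, 27 with EDG9.5 and 8 with Reactivated, and was analysed on its own. In total the Hand1 positive cells held 12579678 UMIs, with a median of 9587 UMIs (quartiles 7720 and 11824) and 3404 genes per cell. The cells with at most 2 Hand1 UMIs had a median of 7173.5 UMIs. The median share of UMIs from mitochondrially encoded genes was 3.89% and 4.29% in the same order. Levels below are CPM, counts scaled to a common total over the summed cells of a class, which give a share of the UMIs and not an amount per cell. Bracketed ranges are exact 95% intervals that cover counting error only.

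Hand1 ran from 10 to 246 UMIs per cell among the selected cells, with a median of 29 and quartiles of 17 and 49. The limit at 10 cut through a continuous run of cells: 49 cells held exactly 10 UMIs and 56 held exactly 9. Lactogen was at 0 in 1128 of the cells, at 1 UMI in 109 and at 2 in 24, and 12 cells with at least 10 Hand1 UMIs were left out with exactly 3. In 22 cells the trophoblast sum led by a single UMI, and in 119 by at most 5. The condition left out 147 cells with at least 10 Hand1 UMIs and under 3 of lactogen, 134 of them with the epiblast sum highest. The median trophoblast sum was 36 UMIs, against 1 for endoderm and 4 for epiblast. Since Hand1 is in the sum, 726 of the 1261 cells would have met the condition without it. These values describe the choice of cells and are no finding.

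**Figure D1:**
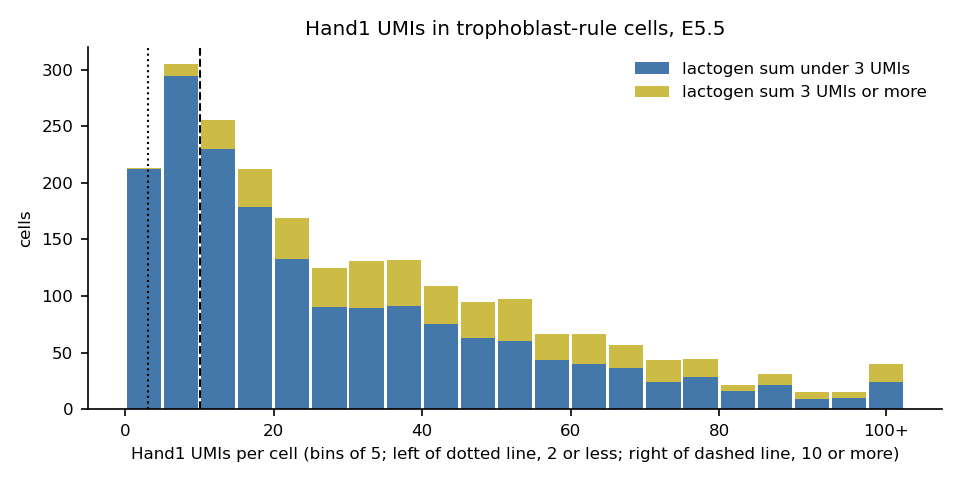
Number of E5.5 trophoblast cells (vertical axis) by Hand1 UMIs per cell (horizontal axis, bins of 5), stacked for cells with a lactogen sum under 3 and of 3 or more, with a dotted line above 2 UMIs and a dashed line at 10. The counts show no gap at 10 UMIs, with 295 cells at 5 to 9 UMIs and 230 at 10 to 14 among those under the lactogen limit.

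All 4 marker genes given for these cells were present in the sum. Of the 1261 cells, 461 (36.6%) had no Ascl2 UMI, 356 no Gata2 UMI and 670 (53.1%) no Cdh5 UMI. The medians were 1, 2 and 0 UMIs per cell for Ascl2, Gata2 and Cdh5, so a cell at 0 is not shown to lack the transcript. Elf5, a factor of the extraembryonic ectoderm, was found in 97.2% of the cells, or 66.1% after thinning each cell to 2000 UMIs, against 2.53% of endoderm and 0.921% of epiblast cells after thinning (6.71% and 3.36% unthinned). These classes had median depths of 8888 and 9243 UMIs. Eomes separated the cells less from endoderm, with 40.8% against 32.6% after thinning (76.9% and 62.3% unthinned).

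Markers of other tissues were measured beside these. The epiblast list stood at 1008 CPM, against 7341 CPM in the epiblast cells of the same library. The visceral endoderm list stood at 276 CPM against 13713 CPM in the endoderm cells, and the parietal endoderm list at 512 against 9365 CPM. Of 11 measured visceral endoderm genes, 10 were higher by any amount than in the Hand1 low cells, 2 of them past 2-fold (median log2 ratio 0.74, or 0.11 without Scrublet doublets), and the list summed to 224 CPM there. The part of these transcripts in other differences was not tested. Decidual stroma markers, which would come from the mother, summed to 7.55 CPM with 7 of 15 genes at 0, and uterine epithelium markers to 57.9 CPM with 2 of 10 at 0. Immune markers summed to 41.1 CPM with 7 of 16 at 0, among them Ptprc and Tyrobp. Erythroid markers summed to 48.3 CPM, of which Gata1 gave 46.1, with Hbb-y at 0. Maternal endothelium markers summed to 201 CPM against 8.90 CPM in the Hand1 low cells, with Cdh5 giving 164 of it, and all 3 measured genes (Cdh5, Pecam1 and Egfl7) were higher, while Vwf, Cldn5 and Tek were at 0. Scrublet marked 34 of these cells as doublets, of 279 in the library.

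Among the genes used for the selection, Hand1 stood at 3622 CPM (3588 to 3655) in the selected cells and at 112 CPM (91.5 to 137) in the cells with at most 2 UMIs. That 32.2-fold distance was set by the rule. Ascl2 went the other way, with 252 CPM (243 to 261) in the Hand1 positive cells and 560 CPM (512 to 611) in the Hand1 low cells, a level 2.22-fold lower (2.02 to 2.44). Gata2 was at 280 CPM (270 to 289) and 415 CPM (374 to 459), 1.48-fold lower. Gata3 was at 197 and 129 CPM, Rhox6 at 22.8 and 35.6 CPM, and Rhox9 at 5.88 and 3.34 CPM. The Hand1 low cells had to meet the trophoblast condition with the other 5 genes alone, so they were selected for Ascl2 and Gata2. When the condition was applied to both classes without Hand1, the Gata2 difference was -0.08 and the Ascl2 difference -0.68 on the log2 scale.

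Cdh5, which the rule did not use, had the highest log2 ratio, 3.96, among genes outside the rule with at least 100 CPM in 1 class. It stood at 164 CPM (157 to 171) in the Hand1 positive cells, from 2057 UMIs, against 1 UMI in all 122 Hand1 low cells, a ratio of 147 (26.3 to 5807). After each cell was thinned to 2000 UMIs, 23.2% of the Hand1 positive cells held a Cdh5 UMI (46.9% unthinned). The share was 0.820% in the Hand1 low cells (0.820% unthinned), and 0.406% in endoderm cells (1.47% unthinned), whose median depth was 8888 UMIs, and which should lack the transcript. Ascl2 was found after thinning in 32.7% of the Hand1 positive cells (63.4% unthinned) and in 58.2% of the Hand1 low cells (82.0% unthinned), against 0.344% of endoderm cells (2.22% unthinned).

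In the comparison with Hand1 low trophoblast, 9595 genes were measured, meaning at least 50 UMIs over the summed classes. A gene was counted when the levels differed at least 2-fold after 10 CPM was added to both: 153 genes (1.59%) were higher in the Hand1 positive cells and 89 (0.928%) were lower. The median log2 ratio over all measured genes was -0.0068.

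After Cdh5, the leading genes higher in the Hand1 positive cells were of several kinds. Sdc1, a cell surface heparan sulphate proteoglycan, stood at 124 CPM (118 to 130) against 3 UMIs, or 3.34 CPM, a ratio of 37.1 (12.7 to 180). Plac8, named for its placental expression, was at 275 against 28.9 CPM, 9.51-fold higher (6.48 to 14.6). Marcks, an actin-binding substrate of protein kinase C, was at 386 against 50.1 CPM, 7.72-fold higher (5.76 to 10.6). The distance was smaller but many UMIs deep for the actin-binding gene Cald1, with 931 against 215 CPM, 4.33-fold higher (3.76 to 5.02). Crim1, a membrane protein that binds BMPs, was at 242 against 37.8 CPM, and the chondroitin synthase gene Chsy1 at 171 against 31.2 CPM. The docking protein gene Efs was at 152 against 43.4 CPM.

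Transcription factors were also among the leading genes. Tead4, the Hippo pathway factor of early trophoblast, stood at 154 CPM in the Hand1 positive and 34.5 CPM in the Hand1 low cells, 4.45-fold higher (3.12 to 6.57). The homeobox gene Irx1 was at 404 CPM (393 to 415) against 119 CPM (97.6 to 144), 3.39-fold higher (2.80 to 4.15). Mycn, of the Myc family of growth regulators, was at 327 against 99.0 CPM, 3.30-fold higher (2.67 to 4.12), and the corepressor gene Ctbp2 at 267 against 74.6 CPM.

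Genes lower in the Hand1 positive cells included imprinted growth regulators. Phlda2, known for restraining placental growth, stood at 1561 CPM (1539 to 1583) against 4719 CPM (4578 to 4864) in the Hand1 low cells, 3.02-fold lower (2.92 to 3.13). Cdkn1c, the cyclin-dependent kinase inhibitor p57, was at 219 against 847 CPM, 3.86-fold lower (3.56 to 4.19). Of 24 imprinted genes measured, 6 were at least 2-fold lower, namely Phlda2, Cdkn1c, Peg3, Slc22a18, Cd81 and Ascl2, and 1, Meg3, was at least 2-fold higher. Among all measured genes 0.928% were lower and 1.59% higher. Ascl2 is a gene of the rule for which the Hand1 low cells were selected. Phlda2 went with it among the Hand1 positive cells, being found in 98.75% of those with Ascl2 and 84.2% of those without (89.8% and 69.4% thinned). The part of the selection for Ascl2 in the other imprinted genes was not tested. Against the extraembryonic ectoderm-type cells described below, 2 of 24 imprinted genes were at least 2-fold higher and 1 was lower, beside 2.05% and 1.35% of all measured genes. Slc22a18, a transporter gene beside Phlda2 in the same imprinted cluster, stood at 8.11 against 90.1 CPM. H19, the imprinted long RNA, was seen in every one of the 1261 cells and hardly differed, at 9479 against 8303 CPM.

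Of the other leading lower genes, Fgfbp1, which encodes a secreted FGF carrier, stood at 37.2 CPM in the Hand1 positive cells and 319 CPM (283 to 359) in the Hand1 low cells, 8.58-fold lower (7.39 to 9.96). The membrane protease gene Prss8 was at 35.2 against 180 CPM, 5.12-fold lower (4.25 to 6.14). Elf3, an epithelial ETS factor, was at 112 against 516 CPM, 4.62-fold lower (4.15 to 5.14). Fabp3, a fatty acid carrier, was at 118 against 421 CPM, and Lpl, the lipoprotein lipase gene, at 28.7 against 111 CPM. Gata1, better known from red cell precursors, was at 46.1 against 188 CPM, while the other erythroid markers were at or near 0 in both classes. Olr1, a scavenger receptor gene chosen after its values were seen, stood at 1.27 against 85.7 CPM, 67.4-fold lower. Ndrg1 was at 121 against 418 CPM, Anxa4 at 71.6 against 220 CPM, Aif1l at 50.6 against 157 CPM and Pced1b at 29.6 against 106 CPM.

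**Figure D2:**
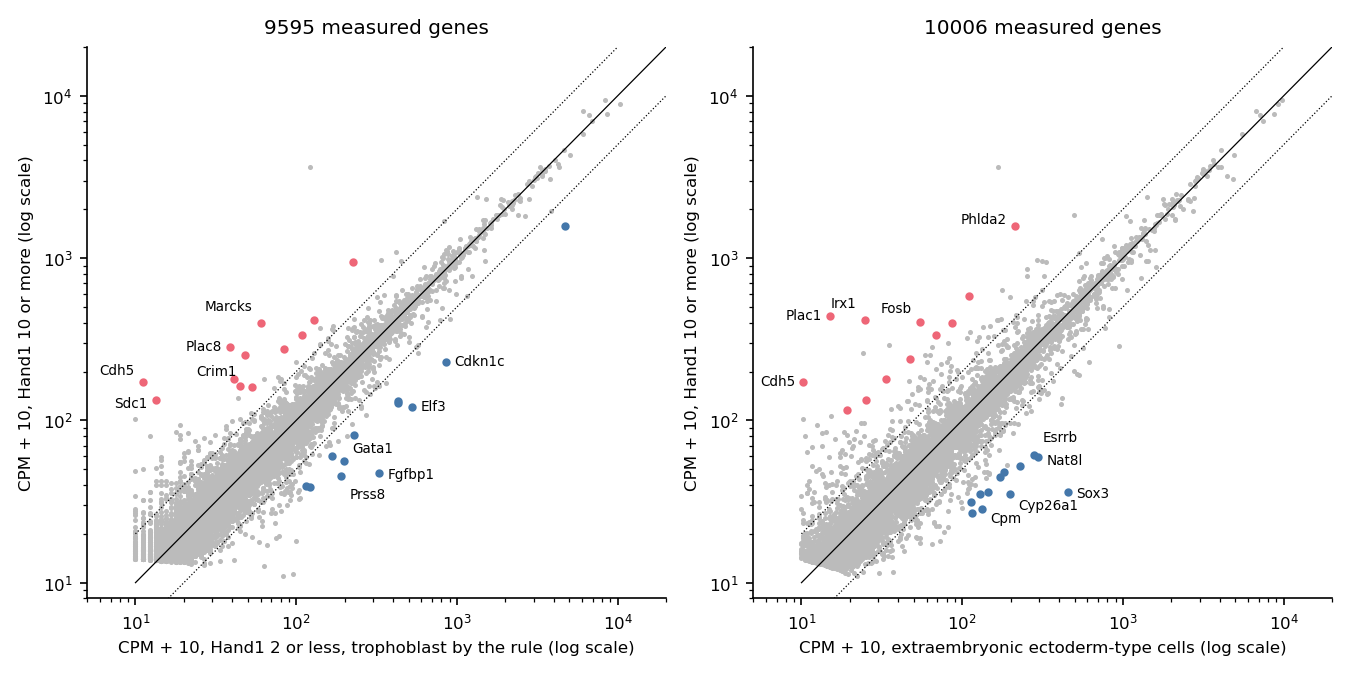
Level of each measured gene in the Hand1 positive cells (vertical axes) against its level in Hand1 low trophoblast (left) and in extraembryonic ectoderm-type cells (right), as CPM plus 10 on log axes, with the 12 leading genes per direction in red (higher) and blue (lower), some of them labelled, a solid line at equal levels and dotted lines at 2-fold. Cdh5 (164 CPM) and Sdc1 (124 CPM) lie far above the lines on the left, Fgfbp1 (37.2 against 319 CPM) lies below them, and Sox3 (26.4 against 447 CPM) lies below them on the right.

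Some Hand1 low cells that failed the trophoblast condition held genes of the extraembryonic ectoderm. A further comparison was therefore made, chosen after the values were seen, with 458 cells with at most 2 UMIs of Hand1, in which Elf5, Cdx2, Esrrb and Bmp4 together reached 3 UMIs and exceeded Tdgf1 plus Pou5f1 and the endoderm sum. Their median depth was 7648.5 UMIs. Since they failed the trophoblast condition, they were selected for little Gata2, Gata3, Rhox6, Rhox9 and Ascl2 relative to the epiblast genes, with a median trophoblast sum of 3 against an epiblast sum of 9 UMIs. They were also selected for Elf5, Cdx2, Esrrb and Bmp4. The values of all these genes against them are a description. Of 10006 genes measured, 205 (2.05%) were at least 2-fold higher in the Hand1 positive cells and 135 (1.35%) were lower, with a median log2 ratio of -0.039.

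Cdh5, which took no part in the choice, stood at 164 CPM in the Hand1 positive cells against 1 UMI in the extraembryonic ectoderm type (585-fold, 105 to 23120). Ascl2 was at 252 CPM against 14.3 CPM (10.6 to 18.7), 17.7-fold higher (13.4 to 23.8), and Gata2 at 280 against 24.9 CPM, 11.2-fold higher (9.11 to 14.0). For Ascl2 and Gata2 the choice of cells bears on the distance to both comparators. Of genes outside the rule, Phlda2 lay between them, with 1561 CPM between 204 and 4719 CPM, and so did Plac1, an X-linked gene of the placenta, with 430 CPM between 5.03 and 598 CPM. Plac1 was 85.5-fold higher (54.0 to 144) in the Hand1 positive cells than in the extraembryonic ectoderm type.

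Other genes were higher against both comparators. Irx1 stood at 404 CPM against 14.8 CPM in the extraembryonic ectoderm type, 27.3-fold higher (20.8 to 36.5), and Sdc1 at 124 against 15.1 CPM, 8.21-fold higher. Mycn (327 against 58.4 CPM) and Marcks (386 against 76.3 CPM) followed. Keratins differed from the extraembryonic ectoderm type alone, with Krt7 at 106 against 9.22 CPM, 11.5-fold higher (8.14 to 16.8), Krt19 at 572 against 99.5 CPM, 5.75-fold, and Krt8 at 218 against 50.6 CPM. In the Hand1 low cells Krt7, Krt19 and Krt8 were at 66.8, 502 and 265 CPM, within 2-fold of the Hand1 positive cells. The corepressor gene Bcor stood at 227 against 37.2 CPM and Ldoc1 at 171 against 23.8 CPM, with 322 and 219 CPM in the Hand1 low cells. Fosb, an immediate early gene, was at 394 against 45.0 CPM, 8.76-fold higher (7.49 to 10.3), with 272 CPM in the Hand1 low cells.

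Immediate early genes can respond to enzymatic dissociation. Of 19 measured, 6 were at least 2-fold higher in the Hand1 positive cells than in the extraembryonic ectoderm type and 3 than in the Hand1 low cells, with none lower in either. Among all measured genes 2.05% and 1.59% were higher in the same order. Fos stood at 947, 302 and 442 CPM in the 3 classes in that order. The part of handling in these values was not tested.

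Lower than in the extraembryonic ectoderm type were Sox3, a SOX family factor, at 26.4 against 447 CPM, 16.9-fold lower (15.0 to 19.1), and the retinoic acid hydroxylase gene Cyp26a1 at 25.3 against 189 CPM, 7.49-fold lower. Nat8l, the N-acetylaspartate synthase gene, was at 49.5 against 288 CPM, Efnb2 at 42.1 against 218 CPM and Socs2 at 26.2 against 135 CPM. Esrrb, used in choosing the comparator, stood at 51.3 against 269 CPM and Bmp4 at 34.5 against 163 CPM. The T-box factor Eomes was at 359 against 761 CPM.

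Gene lists were counted in the same way, beside the shares over all measured genes. These were 1.59% higher and 0.928% lower against the Hand1 low cells, and 2.05% and 1.35% against the extraembryonic ectoderm type. Of 16 measured genes of the ectoplacental cone and spongiotrophoblast list, 3 were at least 2-fold lower and none higher against the Hand1 low cells (median log2 ratio -0.53), while 7 were higher and none lower against the extraembryonic ectoderm type (median 0.68). The list summed to 4898 CPM in the Hand1 positive cells, 10069 CPM in the Hand1 low cells and 1552 CPM in the extraembryonic ectoderm type. Phlda2 alone gave 4719 CPM of the second sum, and the list holds Ascl2, a gene of the rule. Of the extraembryonic ectoderm and trophoblast stem list, 4 of 28 genes were higher and 1 lower against the Hand1 low cells (median 0.39), and 4 of 29 were higher and 8 lower against the other comparator (median -0.47). That list holds Elf5, Cdx2, Esrrb and Bmp4, which chose the other comparator, and 3 of the 8 lower genes are Cdx2, Esrrb and Bmp4, so its count there is a description. It summed to 7396 CPM, against 6271 and 8780 CPM.

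FGF4 from the epiblast is known to hold trophoblast in a stem state through ERK, whose feedback inhibitors are read as a sign of the signal. Of 17 measured genes of FGF signalling and ERK feedback, 9 were at least 2-fold lower in the Hand1 positive cells than in the extraembryonic ectoderm type and none higher (median -1.15). Among all measured genes 1.35% were lower there. The signal itself was not measured. The ERK phosphatase gene Dusp6 stood at 38.2 against 126 CPM, Spry4 at 8.19 against 62.6 CPM, Spry2 at 55.2 against 160 CPM and the receptor gene Fgfr1 at 44.8 against 112 CPM. Fgfr2, the receptor of trophoblast stem cells, did not reach 2-fold, at 153 against 215 CPM. Against the Hand1 low cells, 4 of 16 genes of the list were higher and 1 lower (median 0.51), Dusp6 being at 8.90 CPM there.

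Of 16 keratin and cytoskeleton genes, 8 were higher and none lower against the extraembryonic ectoderm type (median 0.92), beside 2.05% higher among all measured genes. Against the Hand1 low cells 3 were higher, beside 1.59%, including the tropomyosin gene Tpm1 at 961 against 329 CPM. Of 25 genes of the endothelial-type list present in the counts, 6 were measured, and 3 were higher than in the Hand1 low cells. These were Cdh5, Pecam1 at 17.6 CPM and the junction gene Esam at 18.4 CPM. Pecam1 and Esam had 0 UMIs in the Hand1 low cells. With the class total set to 3 counts, they were at least 5.26-fold and at least 5.52-fold higher. The Hand1 low cells held far fewer UMIs, and Pecam1 and Esam counted as measured through the Hand1 positive cells alone. The count of 3 is therefore a description, beside 1.59% higher among all measured genes. Against the extraembryonic ectoderm type, 2 of 6 measured genes of the list were higher and none lower. The endothelial-type list shares Cdh5 and Pecam1 with the maternal endothelium list given above. Of 20 measured bHLH genes and partners, a list that holds Hand1 and Ascl2, 4 were higher and 3 lower against the Hand1 low cells, and of 16 integrin and adhesion genes 2 were higher and 1 lower. None of 30 mitotic and 29 S phase genes reached 2-fold against either comparator, with medians of 0.04 and -0.09 against the Hand1 low cells and 0.14 and -0.26 against the extraembryonic ectoderm type. There, 25 of the 29 S phase genes were lower by any amount, and the list summed to 5505 against 6690 CPM. The ribosome biogenesis (20 genes), respiratory chain (21) and lysosome (22) lists held no gene past 2-fold either. Among all measured genes 1.59% were higher and 0.928% lower against the Hand1 low cells, and 2.05% and 1.35% against the extraembryonic ectoderm type. In lists of this size a count of 0 lies near these shares and is no result about the lists.

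**Figure D3:**
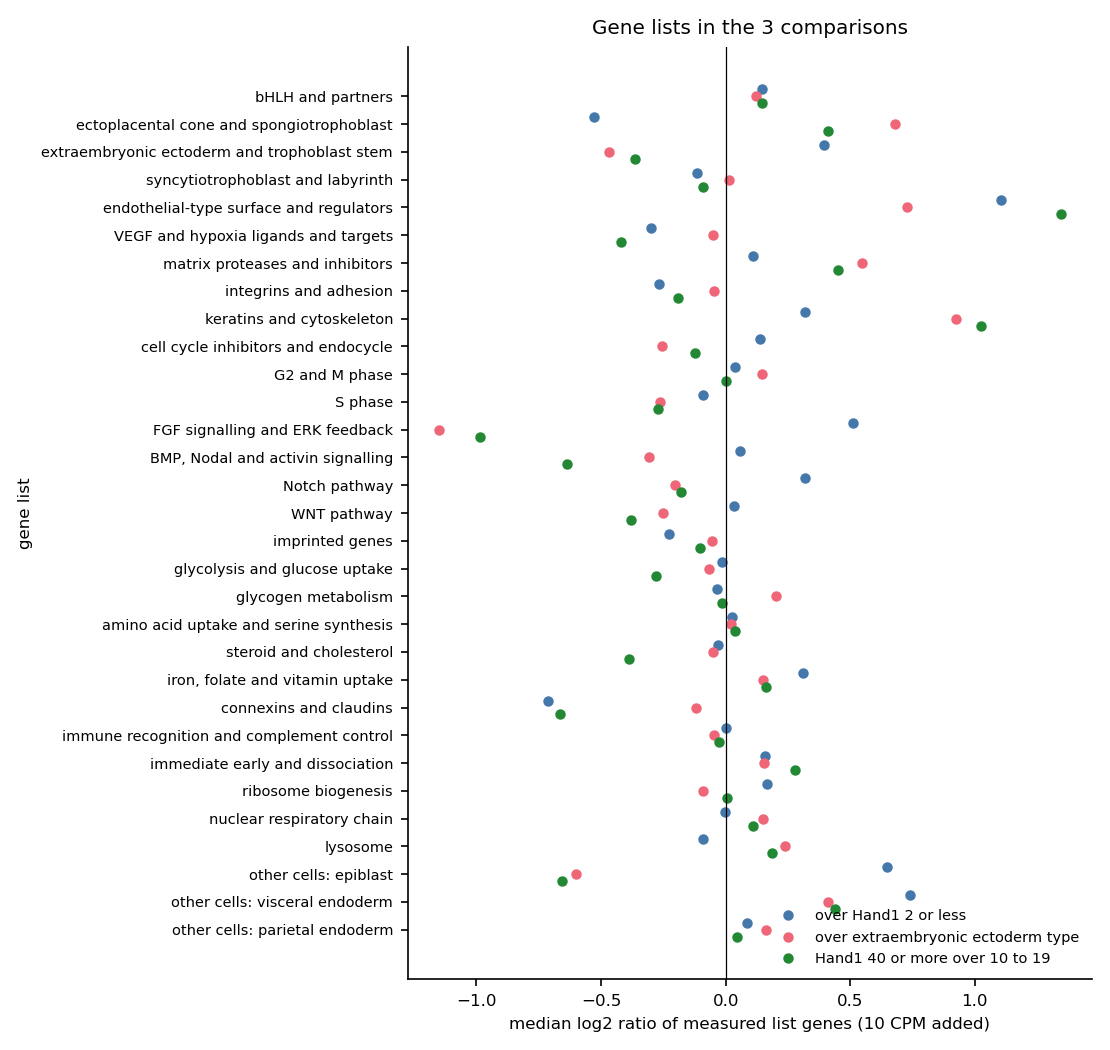
Median log2 ratio (horizontal axis, 10 CPM added) of the measured genes of each list (rows) for 3 comparisons: Hand1 positive over Hand1 low trophoblast, over the extraembryonic ectoderm type, and cells with 40 or more over those with 10 to 19 Hand1 UMIs. The ectoplacental list lies at -0.53, 0.68 and 0.41 in that order, and the FGF and ERK feedback list at 0.51, -1.15 and -0.99.

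The Hand1 positive cells differed among themselves along Hand1. They were divided into 409 cells with 10 to 19 UMIs of Hand1, 403 with 20 to 39 and 449 with 40 or more, whose median depths were 8714, 9159 and 10568 UMIs. A class set by UMIs takes deeper cells at its upper end, and these depths stand beside all values that follow. Of 8790 genes measured, 187 (2.13%) were at least 2-fold higher in the cells with 40 or more UMIs than in those with 10 to 19 and 240 (2.73%) were lower, with a median log2 ratio of -0.073. Hand1 is in the trophoblast sum, and many cells of the 10 to 19 class met the condition only through it. Without Hand1 in the sum, that class held 115 cells and the class of 40 or more held 388. Then 135 genes were higher and 90 lower, of which 108 and 68 were among those counted above.

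Cdh5 stood at 18.4, 134 and 293 CPM in the 3 classes, with a log2 ratio of 3.42 between the last and the first. After thinning, the share of cells with a Cdh5 UMI was 4.89%, 21.1% and 41.9% (unthinned 9.78%, 44.4% and 82.9%), and 1.04% in the 385 trophoblast cells with 3 to 9 Hand1 UMIs (unthinned 2.60%). Gata2 stood at 109, 240 and 436 CPM, 3.98-fold higher (3.58 to 4.44), though its log2 ratio was 0.69 when the trophoblast sum was taken without Hand1 and so rested more on Gata2 itself. Ascl2 followed Hand1 less far, at 170, 247 and 317 CPM, 1.86-fold higher (1.70 to 2.05).

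Of the leading genes ordered with Hand1, Prl7a1, a gene of the prolactin family outside the lactogens of the rule, was at 3.51, 69.1 and 173 CPM, 49.4-fold higher (28.7 to 93.1), and was found in 160 of the 1261 cells. The cytokine gene Il24 was at 4.05, 41.7 and 141 CPM, 34.9-fold higher (21.0 to 62.7). Plac1 stood at 98.1, 404 and 695 CPM, 7.09-fold higher (6.36 to 7.92), and Irx1 at 101, 337 and 680 CPM, 6.77-fold higher (6.08 to 7.55). Plac8 (70.0 to 463 CPM from the first to the last class), Sdc1 (29.4 to 207 CPM), Entpd1, an enzyme gene for extracellular ATP breakdown (21.9 to 164 CPM), Serpinb6b (13.5 to 130 CPM) and Phactr1 (14.3 to 147 CPM) were ordered the same way.

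Other genes were ordered against Hand1. Without Hand1 in the trophoblast sum, 68 of the 240 lower genes were still past 2-fold. The log2 ratio of Car2 then went from -2.30 to -0.94 and that of Morc4 from -2.18 to -0.82. The part of the trophoblast condition in the order of these genes was not tested further. Id2, an inhibitor that binds bHLH proteins without binding DNA, was at 1665, 900 and 263 CPM, 6.33-fold lower (5.96 to 6.72) in the last class than in the first. Esrrb stood at 112, 53.1 and 5.38 CPM, 20.7-fold lower (14.0 to 31.8), Eomes at 582, 377 and 179 CPM, and Cdx2 at 60.8, 27.4 and 4.39 CPM. The caudal factor Cdx2 and the orphan receptor Esrrb thus came close to their level in lactogen-positive cells, 2.36 and 4.52 CPM. The metallothionein gene Mt2 was at 3383, 2102 and 774 CPM, 4.37-fold lower (4.21 to 4.53), with Mt1 4.41-fold lower. Nat8l (24.3-fold), the adenylate kinase gene Ak1 (12.4-fold), the carbonic anhydrase gene Car2 (402 to 73.4 CPM), Fbxo21 (293 to 45.3 CPM) and Lin28a (136 to 25.9 CPM) were also lower in the class with most Hand1. Glucose entry genes were among them, with the transporter gene Slc2a3 at 221 to 48.8 CPM and hexokinase Hk1 at 70.8 to 7.78 CPM. Of 21 measured glycolysis and glucose uptake genes, 3 were at least 2-fold lower and none higher, beside 2.73% lower among all measured genes. By any amount 18 of the 21 were lower (median log2 ratio -0.28).

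Elf5 differed little along the same order, at 597, 519 and 461 CPM. The epiblast list summed to 1348, 1062 and 715 CPM, and the maternal endothelium list, which holds Cdh5, to 39.2, 170 and 343 CPM. The immune list went from 20.5 to 57.4 CPM with 7 of 16 genes at 0 in the last class. The part of these markers in the ordering was not tested.

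**Figure D4:**
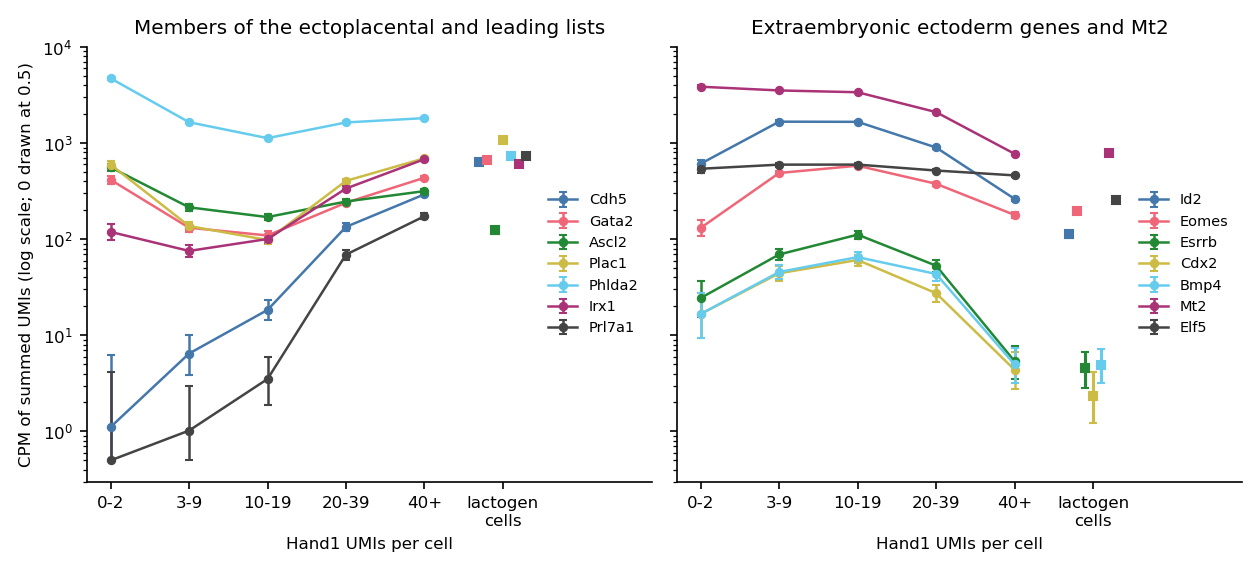
Level of named genes in both panels (vertical axis, CPM, log scale, 0 drawn at 0.5) in E5.5 trophoblast by Hand1 class (horizontal axis, circles joined by lines), with lactogen-positive cells as squares at the right and bars for exact Poisson 95% intervals. Cdh5 goes from 18.4 to 293 CPM between the classes of 10 to 19 and of 40 or more UMIs and Id2 from 1665 to 263 CPM, while Ascl2, Gata2, Plac1 and Phlda2 are also high in the class of 0 to 2 UMIs (560, 415, 598 and 4719 CPM).

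Lists were counted along the same order, beside 2.13% higher and 2.73% lower among all measured genes. Without Hand1 in the trophoblast sum, 135 genes were higher and 90 lower, and the lists were not counted anew there. With 40 or more against 10 to 19 Hand1 UMIs, 9 of 16 keratin and cytoskeleton genes were higher and none lower (median 1.02). Of 25 endothelial-type genes present, 6 were measured, and 4 of them were higher (median 1.35). The list summed to 391 CPM with 40 or more Hand1 UMIs and 50.5 CPM with 10 to 19. Weak genes can count as measured through the class where they are high, so the count of 4 is a description. Of 27 extraembryonic ectoderm and trophoblast stem genes, 12 were lower and 1 higher (median -0.37), and of 15 FGF and ERK feedback genes 7 were lower and none higher (median -0.99). Of 14 BMP and Nodal genes, 4 were lower, including Bmp4 at 65.1 against 4.98 CPM. Of 11 connexin and claudin genes 4 were lower, Cldn6 being at 139 against 41.7 CPM, and the epithelial cadherin gene Cdh1 was at 473 against 206 CPM. No mitotic and no S phase gene passed 2-fold, though 26 of 29 S phase genes were lower by any amount (median -0.27).

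Cell by cell, the share of a cell's UMIs from Hand1 ranked with that of Irx1 (Spearman 0.702 over 1261 cells of 1 library), Marcks (0.671), Cdh5 (0.65), Plac1 (0.633) and Gata2 (0.582), and against that of Id2 (-0.601). These figures are descriptions, since the points share a library and the same totals, and Hand1 share itself ranked with total UMIs at -0.178. Ascl2 gave 0.28. The 591 cells with a Cdh5 UMI had a median of 9696 UMIs and the 670 without had 9485. Plac1 was detected in 93.6% of the former and 29.7% of the latter (79.9% and 31.3% when the cells were thinned to 2000 UMIs and divided anew into 293 with and 968 without Cdh5), and Irx1 in 96.3% and 51.0% (70.6% and 39.6%). Prl7a1 was in 25.2% against 1.64% (17.7% and 3.62%). Id2 was in 60.2% of cells with Cdh5 and 86.6% of cells without (29.4% and 59.5%).

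Promoters of the genes at both ends of this order were read because their levels were ordered together. From the RefSeq table of GRCm38.p6, windows from 250 bases before to 50 after a start were found for 9 of the 12 leading genes higher with 40 or more Hand1 UMIs (16 windows) and for 9 of the 12 lower (14 windows). The letters CATCTG, an E-box variant that reads CAGATG on the other strand, were in 0 of 16 and 2 of 14 (14.3%) windows, against 17.2% of the 32851 windows counted. These 32851 windows do not cover every chromosome. The GATA letters AGATAA, which read TTATCT on the other strand, were in 2 of 16 (12.5%) and 1 of 14 (7.14%), against 11.2% of the windows counted. The motifs share the letters AGAT, and a match is a description of these letters, not of binding. The windows with AGATAA among the higher genes are those of Prl7a1 (chr13:27642444-27642743, minus strand) and Plac1 (chrX:53240061-53240360, minus strand), shown 5′ to 3′ with the matched letters in capitals.
Prl7a1: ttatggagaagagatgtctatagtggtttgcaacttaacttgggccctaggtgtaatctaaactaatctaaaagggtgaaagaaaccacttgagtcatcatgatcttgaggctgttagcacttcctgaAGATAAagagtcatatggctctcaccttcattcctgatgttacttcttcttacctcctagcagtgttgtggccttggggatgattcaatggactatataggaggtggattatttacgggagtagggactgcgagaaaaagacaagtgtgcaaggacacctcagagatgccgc
Plac1: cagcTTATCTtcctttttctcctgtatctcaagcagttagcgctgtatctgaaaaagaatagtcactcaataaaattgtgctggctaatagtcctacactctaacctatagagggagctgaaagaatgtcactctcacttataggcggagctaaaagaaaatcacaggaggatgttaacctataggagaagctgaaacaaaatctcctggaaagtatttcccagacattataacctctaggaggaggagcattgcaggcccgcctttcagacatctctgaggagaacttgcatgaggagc

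The 474 lactogen-positive trophoblast cells, left out by the rule, had a median depth of 9985.5 UMIs and lay beyond the cells with 40 or more Hand1 UMIs for some genes and not for others. Cdh5 was at 633 CPM there against 293 CPM, Gata2 at 660 against 436, Plac1 at 1072 against 695, Plac8 at 1521 against 463 and Prl7a1 at 730 against 173 CPM. Pecam1, another endothelial adhesion gene, was at 322 against 30.3 CPM, and Anxa1 at 279 against 58.2 CPM. Hand1, which set the class of 40 or more, was at 4243 and 5627 CPM. Ascl2 (124 against 317 CPM), Phlda2 (735 against 1820 CPM), Mycn (288 against 448 CPM) and Elf5 (256 against 461 CPM) were lower in the lactogen-positive cells. The Hand1 positive cells with most Hand1 therefore differed from lactogen-positive cells in both directions.

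The Hand1 positive cells were also clustered alone, giving 5 numbered subclusters. Every gene took part in the clustering, so their genes are described and not tested, and they received no cell type name. Subcluster 1 (449 cells, 35.6%) had a median of 50 Hand1 UMIs and led in Il24 (191 CPM), Prl7a1 (239 CPM), Cdh5 (404 CPM), Plac8 (605 CPM) and Serpinb6b (166 CPM). Subcluster 3 (301 cells, 23.9%) had a median of 36 Hand1 UMIs, the most Ascl2 (447 CPM) and Phlda2 (2777 CPM), Cdkn1c at 368 CPM, Plac1 at 649 CPM and Cdh5 at 97.8 CPM. Both held Hand1, Ascl2, Gata2 and Cdh5, with Gata2 at 476 and 370 CPM.

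Subcluster 2 (331 cells, 26.2%) had a median of 18 Hand1 UMIs and led in Fbxo21 (352 CPM), Efna3 (225 CPM), Id2 (1819 CPM) and Gata1 (104 CPM). It kept Ascl2 (192 CPM) and Phlda2 (1160 CPM), with Cdh5 at 3.19 and Plac1 at 19.4 CPM. Subcluster 4 (164 cells, 13.0%) had a median of 16 Hand1 UMIs and held Esrrb (272 CPM), Bmp4 (169 CPM), Sox3 (160 CPM) and Eomes (896 CPM), while Ascl2 was at 7.96, Plac1 at 5.51, Cdh5 at 2.45 and Gata2 at 27.6 CPM. The ectoplacental list summed to 5358, 3902, 7163 and 1712 CPM in subclusters 1 to 4, and the extraembryonic ectoderm list to 6744, 8501, 5960 and 9765 CPM. The name ectoplacental-type therefore went with the 4 given markers in subclusters 1 and 3, and in part with the markers of subcluster 2. It went against those of subcluster 4, although the Hand1 level there was 1634 CPM. Subcluster 1 also led in Prl7a1, Cdh5 and Plac8, which were higher still in lactogen-positive cells. A list of giant cell genes summed to 289, 11.3, 43.9 and 9.19 CPM in subclusters 1 to 4, and to 1129 CPM in lactogen-positive cells. In subcluster 1, 77 of the 449 cells held a lactogen UMI.

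Subcluster 5 (16 cells, 1.27%) had a median of 14677.5 UMIs and held visceral endoderm genes at 6806 CPM in sum, among them Spink3 (1938 CPM) and Apoa1 (859 CPM). Scrublet marked 14 of the 16 as doublets, against 2, 4, 14 and 0 cells in subclusters 1 to 4.

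**Figure D5:**
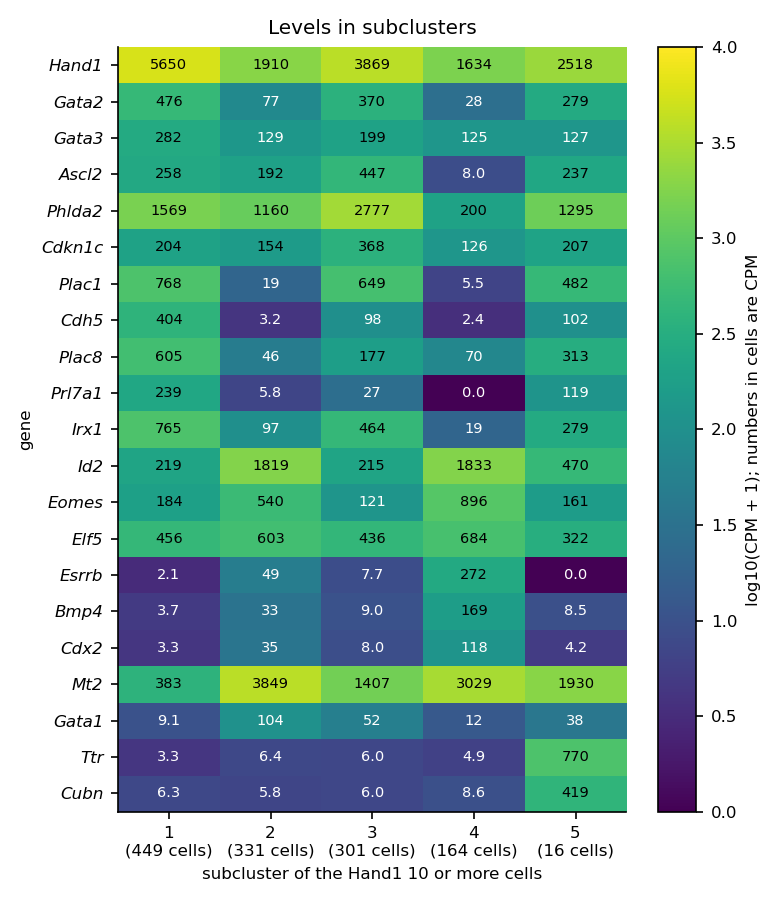
Level of named genes (rows) in the 5 subclusters of the 1261 Hand1 positive cells (columns), with colour for log10 of CPM plus 1 and the CPM written in each cell. Cdh5 is at 404 and 97.8 CPM in subclusters 1 and 3 against 3.19 and 2.45 CPM in subclusters 2 and 4, and Esrrb is highest in subcluster 4 (272 CPM).

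The same rule was applied to the 3 blastocyst libraries, where the stage, the way of collection and the library go together and cannot be told apart. None of 1723 EDG7.5 cells and none of 2522 EDG9.5 cells met it, and 9 of 677 Reactivated cells did. Setting the count of 0 to 3 cells gives limits of 0.174% and 0.119%, for counting error only. Over the trophoblast-condition cells, Hand1 stood at 0 CPM in EDG7.5 (610 cells), 9 UMIs in all in EDG9.5 (964 cells), 272 CPM in Reactivated (105 cells) and 3238 CPM in E5.5. No cell outside E5.5 reached 3 lactogen UMIs. The 9 Reactivated cells had a median of 17692 UMIs, and their counts are given without comparison. They held 243 Hand1 UMIs, 73 of Ascl2, 106 of Gata2, 33 of Cdh5 (in 5 cells), 208 of Plac1, 26 of Irx1 and none of Prl7a1, for which 0 counts allows up to 19.1 CPM.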

How the data were processed

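The deposited values are whole-number counts per gene and cell barcode, read as UMI counts. Per the submitters' processing notes, the authors used featureCounts 1.6.4, STAR 2.7.1a, Subread and UMI-tools 1.0.1 with the build mm10. Annotation, strand setting and the choice of barcodes were not stated, so overlapping and antisense genes may share reads. Counts were summed per cell class and given as CPM, with exact Poisson intervals, and ratios have exact conditional binomial intervals, at 95%. Shares have exact Clopper-Pearson intervals and were taken after thinning cells to 2000 UMIs, which left out 4 endoderm and 1 lactogen-positive cell. No cell was removed as a doublet, and removal of Scrublet calls was an alternative. Members were clustered with Leiden (leidenalg 0.10.2, scanpy 1.11.5). Named are genes of the rule, the 12 highest and 12 lowest ratios among genes with at least 50 UMIs and 100 CPM in 1 class (rule, ribosomal, mitochondrial, predicted and haemoglobin genes left out), and in each list up to 4 genes by level and 4 by ratio. Other genes, among them Cdx2, Dusp6, Spry4, Spry2, Fgfr1, Hk1, Krt8 and Olr1, were chosen after their values were seen. The members and lists were chosen with earlier results of these data known. The steps were tested on simulated data.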

Additional observations from a re-analysis of the deposited data

How the results depend on the processing

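The 79 named ratios past 2-fold kept their direction in all 1474 alternative values. These covered other UMI minimums, doublet removal, thinning, other Hand1 and lactogen limits, a wider trophoblast margin, other added CPM and TMM factors. The tally is a description, since most of these genes were named for their ratios in the same data and the Hand1 ratio was set by the rule. Some settings could not change a ratio: the minimum of 2000 UMIs per cell removed no compared cell, and the minimums of UMIs per gene left each ratio as it was. In 7 of the 1474 values the ratio came under 2-fold. For Ascl2 against Hand1 low trophoblast it was -0.94 on the log2 scale with members of 20 or more Hand1 UMIs and -0.68 without Hand1 in the trophoblast sum, and for Gata2 along Hand1 0.99 with a wider margin and 0.69 without Hand1 in the sum. Car2 and Morc4 along Hand1 came to -0.94 and -0.82 without Hand1 in the sum. Counts of genes past 2-fold moved more. With thinned cells 142 genes were lower along Hand1, and 154 with a minimum of 200 UMIs per gene. Against Hand1 low trophoblast, thinned cells gave 201 higher and 92 lower genes, with the minimum of 50 UMIs applied anew. Of the 153 and 89 genes of the main values, 97 and 47 were among them. With cells of 8000 to 20000 UMIs 235 were higher against Hand1 low trophoblast, and with a comparator of Hand1 0 there were 308 higher and 193 lower. With 20 or more Hand1 UMIs 262 were lower against the extraembryonic ectoderm type. With a trophoblast sum 3 times the others, 161 and 304 were lower in these comparisons, and 123 higher and 113 lower along Hand1. With 1 CPM added the counts were 536 and 278, 442 and 425, and 317 and 526 in the same order, and with 50 CPM 26 and 18, 73 and 29, and 60 and 54. With the trophoblast sum taken without Hand1, added after seeing the data, there were 726 members, with 138 lower, 321 higher and 394 lower, and 90 lower. The median of the visceral endoderm list turned from 0.74 to -0.069 with the wider margin and to -0.096 without Hand1 in the sum. The cause was not tested. The 122 Hand1 low cells held 898627 UMIs, which limits genes under about 10 CPM, and no library repeats the stage.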
